A study of Mus musculus with 16 samples.

Results

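The genes described here handle arginine: 8 genes that break it down, turn it into nitric oxide, rebuild it, carry it across the cell membrane or take its product ornithine onward. They were chosen by name, as Arg1, Arg2, Nos2, Ass1, Asl, Slc7a1, Slc7a2 and Odc1, and all 8 were among the 47311 genes found in the files and among the 16154 with enough reads to be tested. They were measured in bulk RNA from 16 tumours. Each tumour grew from E0771-luciferase cells, a mouse mammary cancer line with a reporter gene, of which 250000 in 25% matrigel were placed in mammary gland 4 of a C57BL/6J female. All mice, controls included, were obese: their feed drew 60% of its energy from fat and was given from week 8 to week 26. Starting on day 3 after the cells, 200 ug of antibody was injected into the abdomen at intervals of 3 days, and tumours were taken on day 21. In 8 mice the antibody was anti-PD-1, which blocks an inhibitory receptor of T cells, and in 8 it was IgG2a, the isotype control. The labels give each tumour its own animal number, so replicates are different mice bearing the same cell line, and there was no lean group. Replicate numbers below only name the tumours.

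Arginine is a substrate for which several enzymes compete. Arginases split it into urea and ornithine, whereas the inducible nitric oxide synthase oxidises it to nitric oxide and citrulline, and citrulline can be rebuilt into arginine by argininosuccinate synthase and lyase. Ornithine feeds polyamine synthesis through ornithine decarboxylase. In tumours, arginase of myeloid cells is known for depleting the arginine that T cells need to divide, and inducible nitric oxide synthase for its part in the inflammatory activity of macrophages.

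Libraries held 59036535 to 82591064 estimated reads. Among the tumours 3 stood apart in whole-library measures. IgG2a replicate 7 had a summed level of 8 adipocyte markers of 14743 TPM (a relative abundance that corrects for transcript length), against 80.3 to 402 TPM in the other 15 tumours. Its erythroid markers summed to 92514 TPM, against 132 to 2668 TPM elsewhere, its fibroblast markers to 5301 TPM, against 582 to 2823 TPM, and its epithelial markers to 435 TPM, against 37.0 to 120 TPM. IgG2a replicate 3 had 31146 TPM over 8 skeletal muscle markers, against 5.39 to 198 TPM elsewhere. Anti-PD-1 replicate 6 had reads for 38993 transcripts, the others for 47997 to 55476. These 3 were set by name, without a numeric limit. Anti-PD-1 replicate 1, the next lowest with 47997 transcripts, was not among them, and no fit left it out together with these 3. Epithelial markers were low for a mammary tumour: Krt8 lay between 33.4 and 75.9 TPM, but the median over tumours was 1.18 TPM for Epcam and 0.467 TPM for Cdh1. RNA was taken from whole tumour pieces, so in every result below fewer cells of a type and less RNA per cell cannot be told apart.

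The members spanned a wide range of abundance, and their order by median TPM was Odc1, Ass1, Asl, Slc7a1, Nos2, Arg1, Arg2 and Slc7a2. Odc1, at a median of 976 TPM, exceeded Ass1, at 423 TPM, in 16 of 16 tumours. Ass1 exceeded Asl, at 32.4 TPM, in 16 of 16, and the ranges of these 2 genes did not overlap. The next places were not separated: Asl exceeded Slc7a1 (26.02 TPM) in 11 tumours, Slc7a1 exceeded Nos2 (19.0 TPM) in 9, and Nos2 exceeded Arg1 (13.2 TPM) in 10. Arg1 exceeded Arg2 (2.15 TPM) in 16 of 16, and Arg2 exceeded Slc7a2 (0.515 TPM) in 14. By mean TPM, Odc1 stood at percentile 99.1 and Ass1 at percentile 97.9 of the genes tested, and Slc7a2 at percentile 25.7. The genes also differed in how far tumours lay apart. The coefficient of variation over 16 tumours was 14.8% for Asl, 30.9% for Ass1 and 32.2% for Odc1, but 175% for Arg1 and 195% for Slc7a2.

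**Figure D1:**
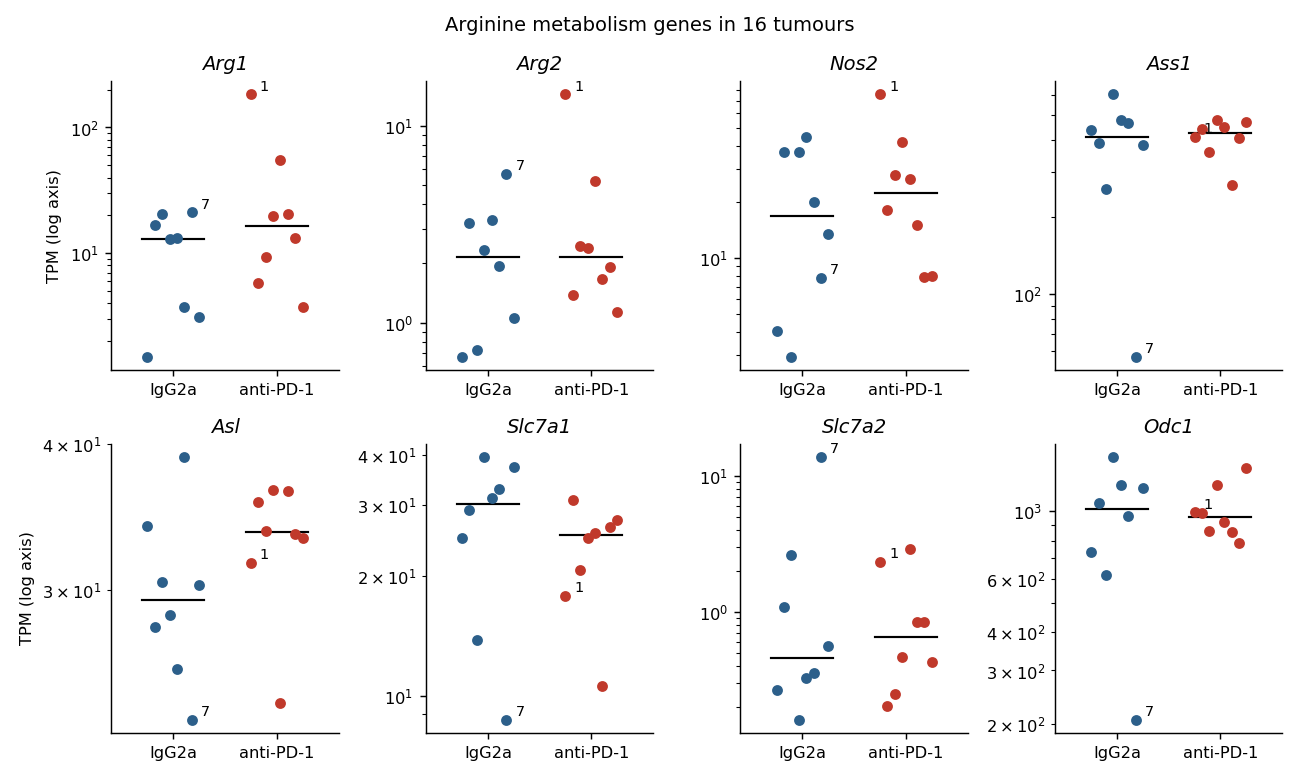
TPM of each of the 8 genes (vertical log axis, which does not start at 0) in 8 IgG2a and 8 anti-PD-1 tumours, 1 point per tumour, with a line at the group median. The numbers mark anti-PD-1 replicate 1, the highest tumour for Arg1 (184 TPM), Arg2 and Nos2, and IgG2a replicate 7, the lowest for Ass1, Asl, Slc7a1 and Odc1 and the highest for Slc7a2 (13.8 TPM).

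None of the 8 genes passed the test between anti-PD-1 and IgG2a. EdgeR's quasi-likelihood test called 0 of the 8 at a Benjamini-Hochberg adjusted p of 0.05, where 0% of all 16154 genes were called. At an unadjusted p under 0.05 there was 1 member, Arg1, where 1836 genes, or 11.4% of all genes tested, stood under that threshold, 3.47% with a higher and 7.9% with a lower estimate. Estimates were higher under anti-PD-1 for 6 members and lower for 2, while 43.1% of all genes had a higher estimate. The median log2 fold change was 0.24 over the members and -0.05 over all genes tested. DESeq2 called 4 genes and limma-voom 0, and no member was among them.

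**Figure D2:**
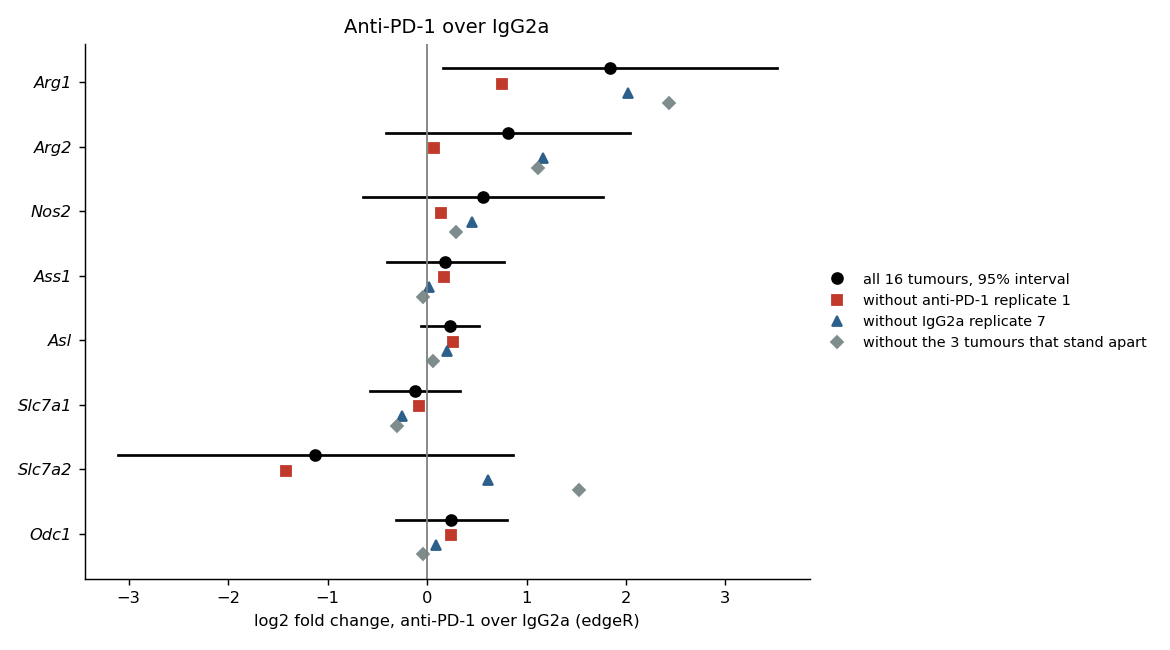
Log2 fold change of each gene, anti-PD-1 over IgG2a, from edgeR: black circles with bars are the estimate over all 16 tumours and its 95% interval, other symbols the estimate without the tumours named. The Arg1 square, without anti-PD-1 replicate 1, lies at 0.75 against 1.84 for all tumours, and Slc7a2 lies at -1.12 over all tumours but at 0.61 without IgG2a replicate 7.

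Arg1, the cytosolic arginase that liver and myeloid cells make, had the largest estimate of the members towards anti-PD-1. The gene (ENSMUSG00000019987) lies on chromosome 10 from 24915221 to 24927484, minus strand, in GRCm38. Of its 3 annotated transcripts, Arg1-201 alone was quantified. Under anti-PD-1 it ran from 3.74 to 184 TPM with a median of 16.5 TPM, and under IgG2a from 1.49 to 21.1 TPM with a median of 13.1 TPM. The groups overlapped over most of their range: 5 of 8 treated tumours exceeded the control median. Anti-PD-1 replicate 1, at 184 TPM and 16562 reads, stood 14.1-fold above the median of the other 15 tumours, and replicate 5 followed with 55.2 TPM. The lowest tumour was IgG2a replicate 1, with 1.49 TPM from 107 reads. Mean Arg1 was 39.0 ± 60.8 TPM (SD, n = 8) in treated and 11.6 ± 7.90 TPM (SD, n = 8) in control tumours. Without anti-PD-1 replicate 1 the treated mean was 18.2 ± 17.5 TPM (SD, n = 7).

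The log2 fold change of Arg1 was 1.84 ± 0.79 (SE) with a 95% interval from 0.16 to 3.52 (edgeR, unadjusted p = 0.0335, adjusted p = 0.434). Without anti-PD-1 replicate 1 it was 0.75 (unadjusted p = 0.259), and without the 3 tumours that stand apart it was 2.43 (unadjusted p = 0.0234). Animal numbers in the labels fall into a lower range, with 3 tumours per group, and an upper range, with 5 per group. Within the lower range the Arg1 estimate was 2.37 ± 1.77 (SE), and within the upper range 1.24 ± 0.72 (SE), neither under an unadjusted p of 0.05 in edgeR.

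Markers of neutrophils, a myeloid cell type, were also high in anti-PD-1 replicate 1. The summed level of 16 neutrophil markers was 974 TPM there, from 72.5 to 499 TPM in the other 15 tumours, with medians of 251 TPM under anti-PD-1 and 236 TPM under IgG2a. Of the 12 neutrophil markers tested, 11 had a higher estimate under anti-PD-1 and 2 of them an unadjusted p under 0.05, Cxcr1 and Mmp9, with a median log2 fold change of 0.73. Over all genes tested, 43.1% had a higher estimate and 11.4% an unadjusted p under 0.05, with a median of -0.05. Without anti-PD-1 replicate 1 the count of neutrophil markers was 9 of 12 and their median 0.27, against -0.05 over all genes. S100a8 and S100a9, abundant cytosolic calcium-binding proteins of neutrophils, reached 307 and 457 TPM in anti-PD-1 replicate 1, the highest of 16 tumours. Of the granule genes, Ltf stood at 15.9 TPM there against a median of 1.598 TPM over all tumours, and Ngp at 0.505 TPM against 0.150 TPM. Camp stood at 0.482 TPM against 0, and Elane at 0.122 TPM against 0.056 TPM. Mpo had 0 reads there and in 6 of the other tumours. Each of these granule genes was highest in IgG2a replicate 7: Ltf at 172 TPM, Ngp at 3.57, Camp at 1.29, Elane at 0.502 and Mpo at 0.534 TPM. Camp and Elane had at most 37 and 19 reads in any tumour. Hepatocyte markers, from the organ with most arginase, summed to 0.886 TPM in anti-PD-1 replicate 1, but to 33.3 TPM, the highest of 16 tumours, in anti-PD-1 replicate 5, which was second in Arg1. The part of these cells in the Arg1 difference was not tested.

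Arg2, the mitochondrial arginase, was the scarcer of the 2 arginases. It lies on chromosome 12 from 79130777 to 79156301, plus strand (ENSMUSG00000021125). Under anti-PD-1 it ran from 1.14 to 14.4 TPM with a median of 2.15 TPM, and under IgG2a from 0.670 to 5.69 TPM with a median of 2.15 TPM. The groups overlapped, and 4 of 8 treated tumours exceeded the control median. Anti-PD-1 replicate 1 was again the highest, 7.40-fold above the median of the other tumours, and anti-PD-1 replicate 5 and IgG2a replicate 7 came next with 5.24 and 5.69 TPM. The log2 fold change was 0.82 ± 0.58 (SE) with a 95% interval from -0.41 to 2.04 (edgeR, unadjusted p = 0.177). It was 0.07 without anti-PD-1 replicate 1, 2.12 within the lower range of animal numbers and -0.09 within the upper range. The library kit did not mark strand, and 285 of the 1428 exonic bases of Arg2 overlap Vti1b, a gene on the opposite strand with 4204 to 8754 reads per tumour, so reads from the shared bases cannot be told apart.

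The arginases moved together from tumour to tumour. The correlation of log2(TPM + 0.1) between Arg1 and Arg2 over 16 tumours was r = 0.80 and rho = 0.65, with permutation p-values adjusted over the 28 pairs of members of 0.00266 and 0.0381. Leaving out the tumours farthest from the median of Arg1, anti-PD-1 replicate 1 and IgG2a replicate 1, gave r = 0.57. Without the 3 tumours that stand apart it was 0.96. Arg1 was the more abundant by a factor of 1.91 to 28.4, with a median ratio of 3.83 under IgG2a and 7.61 under anti-PD-1, and the highest ratio was in IgG2a replicate 3.

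Nos2, the inducible nitric oxide synthase, was present in all tumours. It lies on chromosome 11 from 78920787 to 78960254, plus strand (ENSMUSG00000020826), and all its reads were assigned to Nos2-201. Under anti-PD-1 it ran from 7.85 to 76.1 TPM with a median of 22.3 TPM, and under IgG2a from 2.92 to 44.5 TPM with a median of 16.7 TPM. The groups overlapped, 5 of 8 treated tumours exceeding the control median, and anti-PD-1 replicate 1 was 4.22-fold above the median of the other 15. IgG2a replicates 1 and 3 were the lowest, with 4.04 and 2.92 TPM. Mean Nos2 was 27.7 ± 22.7 TPM (SD, n = 8) in treated and 20.9 ± 16.6 TPM (SD, n = 8) in control tumours, a difference of means smaller than the spread between replicates. In edgeR the log2 fold change was 0.57 ± 0.57 (SE) with a 95% interval from -0.64 to 1.77 (edgeR, unadjusted p = 0.336). It was 0.14 without anti-PD-1 replicate 1, 1.61 within the lower range of animal numbers, -0.13 within the upper range, and -0.34 in limma-voom with quality weights.

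Arg1 and Nos2 were set side by side in each tumour on the TPM scale. Arg1 exceeded Nos2 in 6 of 16 tumours, 4 of 8 under anti-PD-1 and 2 of 8 under IgG2a. The ratio of Arg1 to Nos2 was highest in IgG2a replicate 3, at 7.03, where Arg1 was 20.5 TPM and Nos2 2.92 TPM. It was 2.70 in IgG2a replicate 7, 2.42 in anti-PD-1 replicate 1, 2.08 in anti-PD-1 replicate 5, 1.70 in anti-PD-1 replicate 7 and 1.38 in anti-PD-1 replicate 6. So 3 of the 6 tumours with more Arg1 were those that stand apart in whole-library measures. In the other 10 tumours the ratio lay between 0.186, in IgG2a replicate 6, and 0.467. No tumour lay between 0.467 and 1.38.

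The mean log2 ratio of Arg1 to Nos2 was -0.23 ± 1.23 (SD, n = 8) in treated and -0.76 ± 1.84 (SD, n = 8) in control tumours. The difference of 0.53 ± 0.78 (SE) was smaller than the spread within either group (two-sided exact permutation p = 0.500 over all assignments). Without the 3 tumours that stand apart it was 1.38 ± 0.52 (SE, 7 against 6 tumours, exact permutation p = 0.0373 over 1716 assignments), as IgG2a replicates 3 and 7 held the highest ratios of their group. Within the upper range of animal numbers the difference was 1.28 (exact permutation p = 0.135), and within the lower range -0.72 (exact permutation p = 0.500, where 20 assignments of 3 against 3 cannot go under 0.1).

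**Figure D3:**
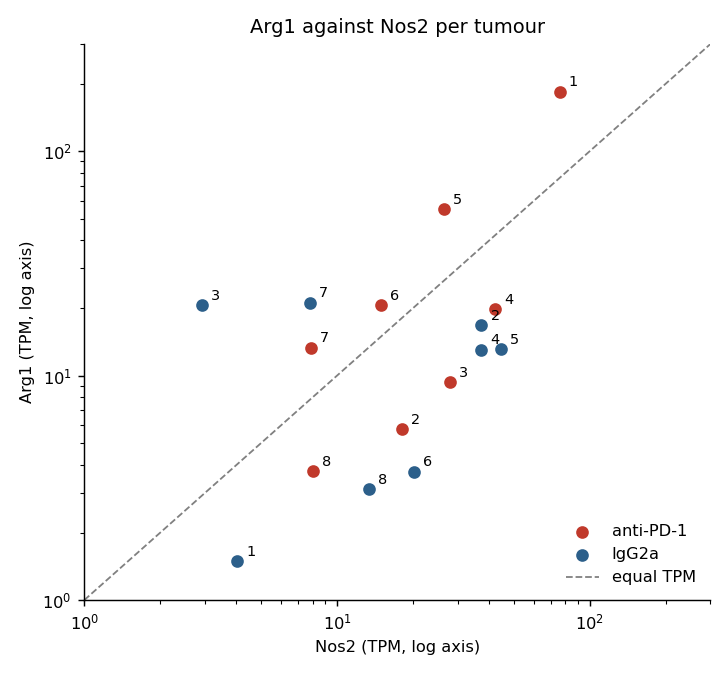
Arg1 against Nos2 in each of 16 tumours, both in TPM on log axes, coloured by group and numbered by replicate, with a dashed line where both are equal. Tumours above the line, 6 of 16, had more Arg1 than Nos2, and IgG2a replicate 3 lies farthest above it, with 20.5 TPM of Arg1 and 2.92 TPM of Nos2.

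Across tumours the levels of Arg1 and Nos2 were loosely related. The correlation of log2(TPM + 0.1) over 16 tumours was r = 0.49 (permutation p = 0.0536) and rho = 0.25 (permutation p = 0.343), adjusted over the 28 pairs of members to 0.125 and 0.505. It rested on the tumours at the ends: without anti-PD-1 replicate 1 and IgG2a replicate 1, the farthest from the median of Arg1, r was 0.10. Within the 8 anti-PD-1 tumours r was 0.74 (exact permutation p = 0.0348) and rho 0.52 (exact permutation p = 0.197). Within the 8 IgG2a tumours r was 0.21 (exact permutation p = 0.612) and rho 0.0. The difference between the groups in these correlations was not tested. Within the lower range of animal numbers r was 0.61 over 6 tumours, and within the upper range 0.29 over 10 tumours. Without the 3 tumours that stand apart r was 0.76 and rho 0.69 over 13 tumours (permutation p = 0.00284 and 0.0108). Arg2 was closer to Nos2 than Arg1 was, with r = 0.70 and rho = 0.67 (adjusted permutation p = 0.0109 and 0.0381), and the difference from the correlation of Arg1 with Nos2 was not tested.

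Genes that varied most like each of them were read from log2 CPM (counts scaled to library size) taken as deviations from the group means over 16 tumours, among 12523 protein-coding genes with a mean of at least 1 CPM. For Arg1 these were Stfa2l1 (r = 0.94), a stefin of the cathepsin inhibitor family, Chil1 (0.90), a chitinase-like protein, the chemokines Cxcl2 (0.89) and Cxcl3 (0.89), which attract neutrophils, and Il1f9 (0.88), the cytokine IL-36 gamma. Without anti-PD-1 replicate 1 these 5 correlations were between 0.84 and 0.92. Stfa2l1 and Chil1 were scarce, with medians of 0.876 and 0.774 CPM and maxima of 11.55 and 9.95 CPM. They passed the limit on the mean only through their higher tumours. For Nos2 they were Cpd (0.92), a carboxypeptidase that releases arginine and lysine from peptide ends, Zc3h12a (0.91), an RNase that degrades cytokine transcripts, Nfkbiz (0.90), a nuclear regulator of NF-kB targets, Smox (0.90), the spermine oxidase, and Gcnt2 (0.90), a glycosyltransferase. No gene was among the closest 5 of both, but lists of 5 drawn from 12523 genes would rarely share any gene. By the same measure, Arg2 ranked 29 of 12522 for Arg1, and Arg1 ranked 622 of 12522 for Nos2. These points share libraries, and each r is a description.

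Genes known to accompany the arginase or the nitric oxide synthase of macrophages were counted beside the members. Over all genes tested, 43.1% had a higher estimate, and 7.9% had a lower one at an unadjusted p under 0.05. These list counts are descriptions. Of 14 genes induced with Nos2 in inflammatory macrophages, all tested, 13 had a higher estimate under anti-PD-1 and 0 an unadjusted p under 0.05, with a median log2 fold change of 0.33. Acod1, which makes itaconate, had 1.08 ± 0.52 (SE), and 0.25 without anti-PD-1 replicate 1. Without that tumour the count was 10 of 14, and the summed level of the list was 999 TPM in that tumour, from 278 to 797 TPM in the others. Of 10 tested genes induced with Arg1 in alternatively activated macrophages, 3 had a higher estimate and 7 a lower one, 3 of these at an unadjusted p under 0.05: Cd163, Clec10a and Retnla, with a median over the list of -0.53. Their summed level was 1095 TPM in IgG2a replicate 7 and from 77.8 to 261 TPM elsewhere, and without the 3 tumours that stand apart 9 of 10 estimates were higher, with a median of 0.33. Over all genes the median was then 0.02, and their share of higher estimates was not counted. Macrophage markers summed to 7364 TPM in IgG2a replicate 7 and to 978 to 3385 TPM in the other tumours.

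Signals known to induce either enzyme were also counted. They stand beside 43.1% of all genes with a higher estimate and 11.4% with an unadjusted p under 0.05. Of 12 tested genes of the Nos2 inducers, 8 had a higher estimate, and 2 of them had an unadjusted p under 0.05: Tnf, with a log2 fold change of 0.81 ± 0.26 (SE), and Il1b, with 1.01 ± 0.41 (SE), which was 0.59 without anti-PD-1 replicate 1. The level of Tnf was 14.0 ± 7.17 CPM in treated and 8.00 ± 2.17 CPM in control tumours (mean and SD, n = 8 each), and its estimate was 0.55 without anti-PD-1 replicate 1. The other 4 Nos2 inducers had a lower estimate, 1 of them at an unadjusted p under 0.05. That was Tlr4, the receptor for bacterial endotoxin, with -0.60 ± 0.27 (SE), which was -0.28 without IgG2a replicate 7. Of 12 tested genes of the Arg1 inducers, 3 had a higher estimate, 1 of them at an unadjusted p under 0.05, and 9 a lower one, 3 of them under it. The first was Csf2, the growth factor GM-CSF, with 1.53 ± 0.62 (SE) at 2.23 ± 2.12 CPM in treated and 0.770 ± 0.615 CPM in control tumours (mean and SD, n = 8 each). Klf4 and Pparg had estimates of -0.86 and -1.56, which were -0.26 and -0.02 without IgG2a replicate 7. None of these genes passed edgeR's test after adjustment.

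The enzymes that rebuild arginine from citrulline were steady in comparison. Ass1, argininosuccinate synthase, lies on chromosome 2 from 31470207 to 31520672, plus strand (ENSMUSG00000076441). It ran from 267 to 479 TPM under anti-PD-1, with a median of 426 TPM, and from 56.9 to 602 TPM under IgG2a, with a median of 411 TPM. The low value was that of IgG2a replicate 7, and the next lowest IgG2a tumour was replicate 3, with 258 TPM. For this gene the log2 fold change was 0.18 ± 0.28 (SE) with a 95% interval from -0.40 to 0.77 (edgeR, unadjusted p = 0.515), and it was 0.02 without IgG2a replicate 7. The coding transcript Ass1-201 held 70.0 to 84.8% of the gene's TPM and the intron-retaining Ass1-204 11.5 to 21.9%.

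Asl, argininosuccinate lyase, lies on chromosome 5 from 130011258 to 130029247, minus strand (ENSMUSG00000025533). It ran from 24.0 to 36.5 TPM under anti-PD-1, with a median of 33.6 TPM, and from 23.2 to 39.0 TPM under IgG2a, with a median of 29.4 TPM. Of the treated tumours 7 of 8 exceeded the control median in TPM, and the groups overlapped. In CPM the medians were close, 27.33 under anti-PD-1 and 27.23 under IgG2a. The log2 fold change was 0.23 ± 0.14 (SE) with a 95% interval from -0.06 to 0.52 (edgeR, unadjusted p = 0.112). Without anti-PD-1 replicate 6 it was 0.09, and without the 3 tumours that stand apart 0.06. Ass1 exceeded Asl by a factor of 2.45 to 21.1, with a median ratio of 12.7 in each group. The correlation of these consecutive enzymes across tumours did not pass its test (r = 0.41 and rho = 0.14, adjusted permutation p = 0.199 and 0.719), and without IgG2a replicates 7 and 3, the farthest from the median of Ass1, r was -0.26.

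Arginine enters cells mainly through cationic amino acid transporters. Slc7a1, which encodes the widespread carrier CAT-1, lies on chromosome 5 from 148327410 to 148399904, minus strand (ENSMUSG00000041313). It ran from 10.6 to 30.9 TPM under anti-PD-1, with a median of 25.3 TPM, and from 8.71 to 39.7 TPM under IgG2a, with a median of 30.2 TPM. The groups overlapped, but 1 of 8 treated tumours exceeded the control median. For Slc7a1 the log2 fold change was -0.12 ± 0.22 (SE) with a 95% interval from -0.58 to 0.33 (edgeR, unadjusted p = 0.583). Without the 3 tumours that stand apart it was -0.30 ± 0.10 (SE, unadjusted p = 0.00864, adjusted p = 0.276), where 15.8% of all genes had an unadjusted p under 0.05. With limma-voom and quality weights it was -0.25 (unadjusted p = 0.0195), where 21.2% of all genes did.

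Slc7a2, which encodes the inducible carrier CAT-2, was the scarcest member and the one in which 1 tumour mattered most. The gene (ENSMUSG00000031596) lies on chromosome 8 from 40862396 to 40922308, plus strand. It ran from 0.205 to 2.93 TPM under anti-PD-1, with a median of 0.651 TPM, and from 0.162 to 13.8 TPM under IgG2a, with a median of 0.461 TPM. IgG2a replicate 7 held the 13.8 TPM, 29.7-fold above the median of the other 15 tumours, and was the only tumour in which Slc7a2 exceeded Slc7a1. EdgeR's log2 fold change was -1.12 ± 0.94 (SE) with a 95% interval from -3.11 to 0.87 (edgeR, unadjusted p = 0.250). Without IgG2a replicate 7 the direction turned, to 0.61 ± 0.71 (SE, unadjusted p = 0.406), and DESeq2, which replaced the count of that tumour as an outlier, also gave 0.61. Without the 3 tumours that stand apart it was 1.52 ± 0.66 (SE, unadjusted p = 0.0364). Arg1 and Slc7a2 were positively related over 16 tumours (r = 0.59 and rho = 0.73, adjusted permutation p = 0.0482 and 0.0232), with r = 0.56 without anti-PD-1 replicate 1 and IgG2a replicate 1.

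Slc7a2 is known to be spliced into forms that use one or the other of 2 neighbouring exons, giving carriers CAT-2A and CAT-2B of unequal affinity for arginine. In GENCODE vM21 these are exon 7 of the transcripts, with 140 bases in one pair of transcripts and 137 bases in the other pair. They are shown because these exons define the forms. The transcripts also differ in length elsewhere, so the assignment of reads does not rest on these exons alone. The sequences, from the GENCODE transcripts on GRCm38 and aligned over their length, share 84 bases, differ at 53 and leave 3 unpaired. Capitals mark bases that differ or are unpaired, 5′ to 3′.
Slc7a2 exon of 140 bases, chr8:40908056-40908195, plus strand: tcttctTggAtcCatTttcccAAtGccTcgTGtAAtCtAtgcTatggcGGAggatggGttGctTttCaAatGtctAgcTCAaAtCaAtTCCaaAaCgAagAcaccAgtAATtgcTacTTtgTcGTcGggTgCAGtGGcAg
Slc7a2 exon of 137 bases, chr8:40908398-40908534, plus strand: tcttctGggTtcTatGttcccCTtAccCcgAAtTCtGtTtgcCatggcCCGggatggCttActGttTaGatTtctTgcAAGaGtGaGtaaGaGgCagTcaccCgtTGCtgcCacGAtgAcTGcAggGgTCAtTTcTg

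The tumours used both exons. Transcripts with the 140-base exon took a median of 75.2% of the TPM of both forms under anti-PD-1 and 57.9% under IgG2a, with a range of 0 to 100% in each group, and more than 50% in 12 of 16 tumours. Few reads lay behind most of these shares: tumours other than IgG2a replicate 7 had 44 to 1462 reads for the whole gene. In IgG2a replicate 7, with 5849 reads, the share was 55.4%, with 7.66 TPM for the 140-base exon and 6.16 TPM for the 137-base exon. In the other tumours with more than 1000 reads it was 56.7% (anti-PD-1 replicate 1), 83.2% (anti-PD-1 replicate 5) and 29.5% (IgG2a replicate 3). The groups were not tested for this share, as the assignment of reads to forms is the authors' estimate and its error is unknown.

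Odc1, ornithine decarboxylase, the enzyme that commits ornithine to polyamines, was the most abundant member. It lies on chromosome 12 from 17544794 to 17551505, plus strand (ENSMUSG00000011179). It ran from 784 to 1388 TPM under anti-PD-1, with a median of 952 TPM, and from 207 to 1504 TPM under IgG2a, with a median of 1015 TPM. The low value was again that of IgG2a replicate 7, and 2 of 8 treated tumours exceeded the control median. The log2 fold change was 0.24 ± 0.26 (SE) with a 95% interval from -0.31 to 0.80 (edgeR, unadjusted p = 0.367), 0.09 with IgG2a replicate 7 left out and -0.04 without the 3 tumours that stand apart.

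Ass1, Slc7a1 and Odc1 varied together over the tumours. The correlation was r = 0.93 and rho = 0.75 for Ass1 with Odc1 (adjusted permutation p = 8.4e-04 and 0.0232), r = 0.81 and rho = 0.64 for Ass1 with Slc7a1 (8.4e-04 and 0.0381), and r = 0.77 and rho = 0.69 for Slc7a1 with Odc1 (0.00266 and 0.0378). Leaving out the 2 tumours farthest from the median, which included IgG2a replicate 7 each time, gave r = 0.58, 0.77 and 0.69. Leaving out the 3 tumours that stand apart gave r = 0.59, 0.48 and 0.51 and rho = 0.59, 0.32 and 0.49. Within the anti-PD-1 tumours r was 0.60, 0.89 and 0.35, and within the IgG2a tumours 0.96, 0.91 and 0.95. Each of the 3 genes was inversely related to Slc7a2 by r, from -0.78 to -0.71 (adjusted permutation p from 0.0109 to 0.0125). By rho, from -0.55 to -0.44, these pairs did not pass (adjusted permutation p from 0.0956 to 0.182). Without IgG2a replicate 7 r lay from -0.52 to -0.43, and without the 3 tumours that stand apart from -0.46 to -0.23. It lay from -0.26 to -0.01 within the anti-PD-1 tumours and from -0.95 to -0.89 within the IgG2a tumours. Of the 28 pairs of members, 6 had an adjusted permutation p under 0.05 by both r and rho. Markers of adipocytes, none of them members, had a lower estimate in 8 of 8 tested genes, and in 1 of 8 without the 3 tumours. Cell cycle genes summed to 481 TPM in IgG2a replicate 7 and to 886 to 1630 TPM in the other tumours, endothelial markers to 819 TPM and to 88.2 to 177 TPM. The part of these other cells in the relations was not tested.

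**Figure D4:**
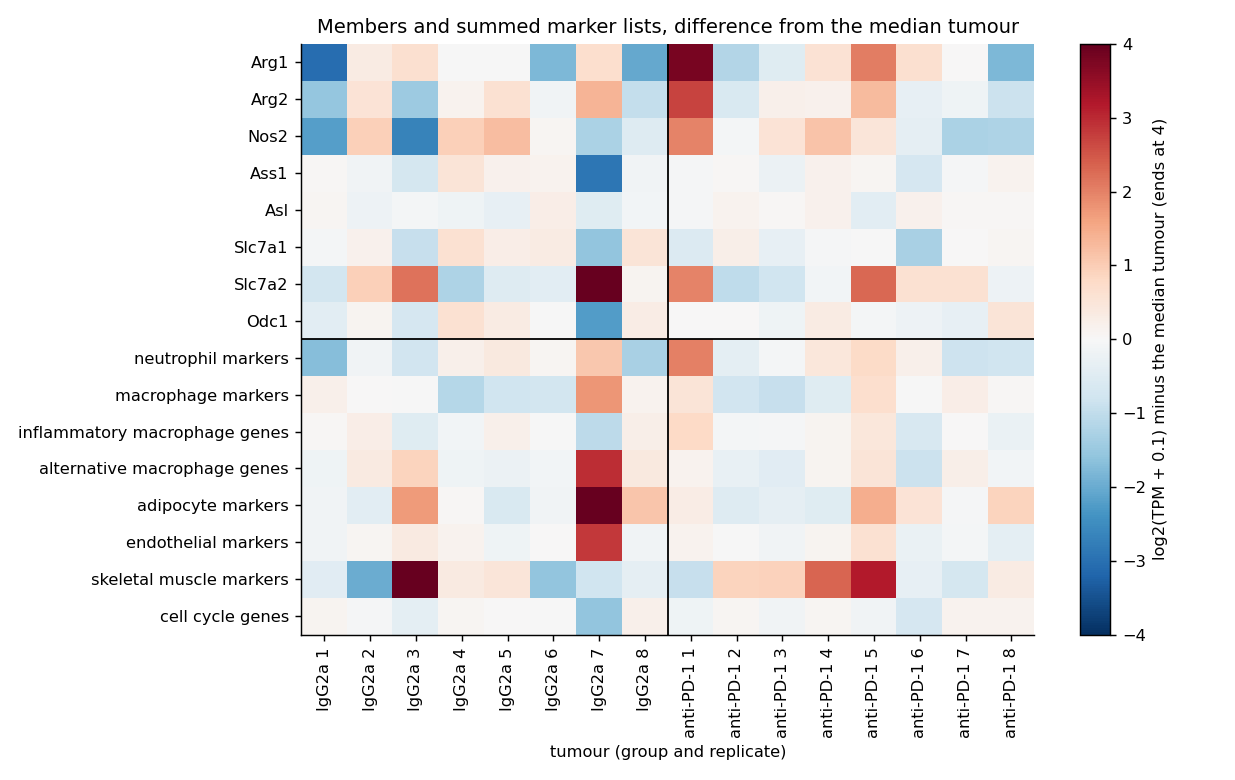
Each of the 8 genes (upper rows) and the summed TPM of 8 marker lists (lower rows) in each tumour (columns, by group and replicate), as log2(TPM + 0.1) minus the median of 16 tumours, with the colour scale ending at -4 and 4. IgG2a replicate 7 is low in Ass1, Slc7a1, Odc1 and cell cycle genes and high in Slc7a2 and in adipocyte, endothelial and macrophage lists, and anti-PD-1 replicate 1 is high in Arg1, Arg2, Nos2 and neutrophil markers.

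The sequence just before the start sites is given for Ass1, Slc7a1 and Odc1, the members for which it was available. It is from RefSeq on GRCm38.p6 and cut where the GENCODE gene begins. A part of these sequences in the relations between the genes was not tested. Windows of 300 bases, 250 before and 50 after the RefSeq start, were searched on both strands for GGGCGG (GC box), CACGTG (E-box), TATAAA, TGACGTCA (cyclic AMP response element) and TGATGNAAN (amino acid response element). The GC box was found 4 times for Odc1, 1 time for Ass1 and 1 time for Slc7a1, and 35.7% of 32851 windows of all genes held it. The E-box was found 1 time for Ass1, against 7.15% of all windows, and in no such window of Slc7a1 or Odc1. The other motifs were not found in these 3 windows. A further Slc7a1 window, at an inner start, held TATAAA, as did 13.6% of all windows. The windows held 74.0% G and C for Ass1, 65.0% for Slc7a1 and 78.0% for Odc1, against a median of 52.7%. Capitals mark the GC box on either strand, 5′ to 3′, and both matches of Ass1 and 1 of the 4 GC boxes of Odc1 lie after the stretch shown.
Ass1, chr2:31470020-31470206, plus strand: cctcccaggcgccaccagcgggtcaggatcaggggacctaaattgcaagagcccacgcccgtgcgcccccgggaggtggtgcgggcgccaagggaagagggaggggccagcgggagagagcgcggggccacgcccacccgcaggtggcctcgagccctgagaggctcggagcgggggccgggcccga
Slc7a1, chr5:148399905-148400154, minus strand: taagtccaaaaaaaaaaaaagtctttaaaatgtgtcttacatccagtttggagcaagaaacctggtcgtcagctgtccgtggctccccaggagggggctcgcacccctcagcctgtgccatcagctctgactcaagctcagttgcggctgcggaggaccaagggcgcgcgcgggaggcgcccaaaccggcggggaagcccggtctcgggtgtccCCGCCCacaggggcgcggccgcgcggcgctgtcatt
Odc1, chr12:17544623-17544793, plus strand: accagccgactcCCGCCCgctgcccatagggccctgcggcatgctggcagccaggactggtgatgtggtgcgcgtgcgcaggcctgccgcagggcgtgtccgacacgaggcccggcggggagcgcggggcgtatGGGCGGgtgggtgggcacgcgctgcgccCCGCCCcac

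Genes of the wider polyamine pathway differed widely in abundance, from a median of 0.312 TPM for Oaz3 to 2445 TPM for Eif5a. Of 15 genes of polyamine synthesis, breakdown and control, all tested, 9 had a higher estimate and 6 a lower one, and 3 had an unadjusted p under 0.05, all higher. Among all genes tested, 43.1% had a higher estimate, and 3.47% had a higher one at an unadjusted p under 0.05. Dhps, which makes the first step of the hypusine modification of translation factor eIF5A, had a log2 fold change of 0.35 ± 0.14 (SE), Dohh, which completes it, 0.36 ± 0.17 (SE), and Amd1, S-adenosylmethionine decarboxylase, 0.29 ± 0.13 (SE). The level of Dhps was 32.6 ± 9.02 CPM in treated and 25.6 ± 2.93 CPM in control tumours (mean and SD, n = 8 each). Without the 3 tumours that stand apart these estimates were 0.21, 0.14 and 0.18. The substrate of the modification, Eif5a, had a median of 2445 TPM, and Oaz1, the antizyme that targets ornithine decarboxylase for degradation, 785 TPM. The median log2 fold change over the list was 0.16, and 0.13 without the 3 tumours, against -0.05 and 0.02 over all genes.

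Other branches of ornithine and urea metabolism showed no call. Of the 6 other urea cycle genes, 2 passed the filter on low counts, the mitochondrial carriers Slc25a15 and Slc25a13, with estimates of 0.09 and 0.05. Cps1 and Otc, the mitochondrial enzymes of the cycle, had 0 reads in 11 and 12 of 16 tumours and at most 0.136 and 0.103 TPM. Of 9 tested genes of the ornithine, proline and creatine branches, 6 had a higher estimate and 0 an unadjusted p under 0.05, against 43.1% and 11.4% of all genes. In these branches Pycrl, a pyrroline-5-carboxylate reductase of proline synthesis, had 0.21 ± 0.13 (SE), and Gatm, which uses arginine to start creatine synthesis, 0.15 ± 0.11 (SE). Oat, which converts ornithine towards proline or glutamate, had a median of 47.1 TPM, below the median of Odc1 in TPM.

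Of 11 other genes of nitric oxide synthesis, its cofactor and its inhibitor clearance, all tested, 6 had a higher estimate and 1 an unadjusted p under 0.05, against 43.1% and 11.4% of all genes. That was Nos3, the endothelial synthase, with a log2 fold change of -1.18 ± 0.56 (SE), which was 0.006 without IgG2a replicate 7, where Nos3 stood at 15.3 TPM against a median of 1.30 TPM over all tumours. Nos2 exceeded both other synthases in its median, as Nos1 had 2.23 TPM. Gch1, which makes the cofactor tetrahydrobiopterin, had a median of 6.98 TPM and an estimate of -0.06 ± 0.13 (SE). Nosip, which binds nitric oxide synthase, had an estimate of 0.14 ± 0.08 (SE).

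Of 9 tested genes of other arginine carriers and of arginine sensing, 5 had a higher estimate, and 1 had an unadjusted p under 0.05, against 43.1% and 11.4% of all genes. That was Slc3a2, the heavy chain shared by several amino acid exchangers, at 286 ± 39.4 CPM in treated and 248 ± 26.3 CPM in control tumours (mean and SD, n = 8 each), which gave an estimate of 0.21 ± 0.10 (SE). It was 0.16 without the 3 tumours that stand apart. Castor1 and Castor2, cytosolic arginine sensors upstream of mTORC1, had estimates of 0.30 ± 0.22 and -0.24 ± 0.12 (SE), and that of Castor2 was -0.32 without the 3 tumours (unadjusted p = 0.0111). After adjustment over all genes tested, edgeR called 0 genes of these pathway lists.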

How the data were processed

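Per the file headers, the deposited tables give, for each Ensembl mouse transcript of 16 tumours, estimated counts of reads, the authors' TPM, and as other columns the transcript's length and effective length. Per the labels' protocols, poly(A) RNA went into non-directional libraries. The submitters' processing notes name GRCm38, edgeR and limma. For the quantifier and its annotation, none is given in the sources used here.

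Transcripts were matched to GENCODE vM21 (114200 of 115088). Estimated counts were summed per gene, rounded, filtered (filterByExpr, minimum count 10, total 15), scaled by TMM and given to edgeR 4.0.16 in R 4.3.3 (robust quasi-likelihood test) with Benjamini-Hochberg adjustment over 16154 genes. On simulated counts with 50 genes changed at each size, the test recovered 10% of 1.5-fold and 42% of 2-fold changes. It recovered 62% of 4-fold and 90% of 8-fold changes, with 5 false calls. Tumours that stand apart were not simulated. Levels and ratios between genes use TPM. Permutation tests ran in Python 3.11.15, exact for 8 or fewer tumours per group and with 100000 resamples for correlations over more. Alternatives were other scalings, filters, DESeq2 1.42.0, limma-voom (limma 3.58.1), TPM, pseudocounts of 1, animal number ranges and left-out tumours, and the fits within each range and the list counts without named tumours were added after seeing the data. Beside members, up to 3 tested genes of smallest unadjusted p of a list, 5 genes most like Arg1 and Nos2, and members of marker lists where a tumour stands apart were named. Other genes given with levels or estimates were chosen after their values were seen. These are Krt8, Epcam, Cdh1, S100a8, S100a9, Ltf, Ngp, Camp, Elane, Mpo, Eif5a, Oaz1, Oaz3, Oat, Cps1, Otc and Gch1. The members and lists were chosen with earlier results of these data known. Promoter sequences of Ass1, Slc7a1 and Odc1 are from RefSeq.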

Additional observations from a re-analysis of the deposited data

Results flagged for a closer look

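Of 18 sets of 8 tumours checked for a value far from the rest of its group, 4 were picked out by the gap to the nearest tumour as a share of the group's range, above 0.526. Chance picks about 1 set in 20 where values are normally distributed, and TPM of these genes were skewed. Arg1 in anti-PD-1 replicate 1 was 184 TPM, the next treated tumour 55.2 TPM (gap 0.715). Arg2 in the same tumour was 14.4 TPM, the next 5.24 TPM (gap 0.691). Asl in anti-PD-1 replicate 5 was 24.0 TPM, below the next lowest treated tumour at 31.6 TPM (gap 0.610). In CPM that tumour was not apart, with 25.86 CPM of Asl against 26.36 CPM in anti-PD-1 replicate 1. Slc7a2 in IgG2a replicate 7 was 13.8 TPM, the next control 2.65 TPM (gap 0.818). On log2(TPM + 0.1), a scale added after seeing the data, the gap was 0.311 for Arg1, 0.406 for Arg2 and 0.408 for Slc7a2, all under the limit, and 0.658 for Asl, above it. On that scale IgG2a replicate 7 was also apart in Ass1 (gap 0.640) and in Odc1 (gap 0.550), as the lowest control. The part of library composition, and of the assignment of reads to transcripts, in these values was not tested.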

How the results depend on the processing

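No paired analysis was possible because replicate numbers follow accession order and pair no tumours. DESeq2 called 4 genes, and edgeR and limma 0 under each alternative. In the main fit 1 member had an unadjusted p under 0.05, as did 11.4% of all genes tested. Without the 3 tumours that stand apart there were 3 members (Arg1, Slc7a1 and Slc7a2), and 15.8% of all genes. With limma-voom and quality weights there was 1 member, Slc7a1 with a lower estimate, and 21.2% of all genes. Limma-voom gave 0 members (6.26% of all genes), and limma on TPM 0 with either pseudocount (5.13% and 5.01%). With animal number range as a covariate there were 0 (8.39%), in range 1 alone 0 (1.69%) and in range 2 alone 0 (14.2%). Leaving out each replicate gave 0 to 1 members, where 7.13% to 16% of all genes stood under that threshold. It gave 0 without anti-PD-1 replicate 1 and without IgG2a replicates 1, 6 or 8. The Arg1 estimate was above 0 in 29 of 29 alternatives, from 0.75 to 2.43, and Asl in 29 of 29, from 0.00 to 0.36. Slc7a2 turned to 0.61 with DESeq2 and without IgG2a replicate 7, 0.13 with limma-voom, 0.48 with quality weights and 1.52 without the 3 tumours, and leaving out each replicate gave -1.49 to 0.61. Nos2 turned to -0.34 with quality weights and -0.13 in range 2, Arg2 to -0.09 in range 2, Slc7a1 to 0.03 in range 1, and without the 3 tumours Ass1 and Odc1 to -0.04 each. The difference in the log2 ratio of Arg1 to Nos2 was 1.38 without the 3 tumours, -0.72 in range 1, and 0.30 to 1.03 when each replicate was left out. The correlation of Arg1 with Nos2 was 0.50 (p = 0.04999) with a pseudocount of 1, 0.53 (p = 0.0373) with CPM and 0.76 without the 3 tumours, and leaving out each replicate gave 0.32 to 0.65, with a permutation p under 0.05 without IgG2a replicate 3, 6 or 7. The cause of these changes was not tested. Low counts limit Slc7a2, with 44 reads in its lowest tumour.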
